A study of Mus musculus with 4 samples.

Results

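The laminin and integrin genes were followed across the compartments of mouse dorsal skin. The set holds every gene whose symbol is Lama, Lamb or Lamc, or Itga or Itgb, followed by a number, together with Itga2b, Itgad, Itgae, Itgal, Itgam, Itgav and Itgax, which makes 37 genes (11 laminins and 26 integrins) of 32286 features. Skin was taken at P38 from 3 R26-tdTomato; Krox20-CreERT mice that had received 4-hydroxytamoxifen at P2, so all samples share the genotype, the induction and the age, and there was no untreated or Cre-negative group. In these mice the Krox20 locus drives an inducible Cre recombinase that switches on a red reporter. Transcripts were captured on spatial arrays, in which each barcoded spot takes up RNA from the several cells above it, and 4 slices with 1 section per mouse were read. The paper states that a 4th section was left out of its own analysis because its structure was distorted. Whether spots of that section are among those read here cannot be told from the sample labels. The slices are technical replicates of the same 3 mice, so SDs and p-values given here measure the spread between slices and not between animals.

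Laminins are trimers of an alpha, a beta and a gamma chain that polymerise in basement membranes. Laminin-332, which holds the chains of Lama3 and Lamb3, anchors the basal keratinocytes of the epidermis, laminin-511 (Lama5, Lamb1 and Lamc1) is widespread below epithelia and along hair follicles, and chains encoded by Lama2 and Lama4 belong to the basement membranes of muscle, nerve and vessels. Integrins are receptors of an alpha and a beta chain: the pair of Itga6 and Itgb4 holds the hemidesmosome to laminin-332, Itgb1 pairs with most alpha chains that bind laminin or collagen, Itgav pairs with Itgb3, Itgb5, Itgb6 or Itgb8 in receptors that bind fibronectin, vitronectin or latent TGF-beta, and Itgb2 and Itgb7 are leukocyte chains.

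The 4 slices held 26910422, 24128004, 21384253 and 19393026 UMIs (unique molecular identifiers, 1 per captured transcript), and 6411 of 6420 spots, those with at least 250 genes, were kept. Because the array repeats its position barcodes, 1840 barcodes occurred in more than 1 slice, which marks shared array positions and not shared cells. Levels are given as CPM, UMIs per 1e+06 UMIs of all spots of a region in a slice. In such sums fewer cells of a type and less RNA per cell cannot be told apart. Spots fell into 12 clusters, named here by leading genes. The Lor/Krt10 region (842 spots) carried the differentiation genes of the interfollicular epidermis, the Atp12a/Cst6 region (746 spots) and the Scd3/Cidea region (253 spots) those of the upper follicle and sebaceous gland, the Slc4a1/Krt14 region (1023 spots) Krt14 and Krt6a, which the outer root sheath expresses (Krt6a was the 1 of 10 listed outer root sheath markers among its 20 leading genes), the Krt32/Krt31 region (821 spots) and the Top2a/Mki67 region (587 spots) those of hair shaft and dividing matrix, the Adipoq/Cfd region (407 spots) fat genes, the Myl1/Acta1 region (746 spots) skeletal muscle genes and the Mlana/Dct region (98 spots) melanocyte genes. Mc5r of the upper follicle and sebaceous list was also among the 20 leading genes of the Slc4a1/Krt14 region. That tie went to the list with the higher mean log2 fold. Cst6 was the 1 of 13 upper follicle and sebaceous markers among the 20 leading genes of the Atp12a/Cst6 region. Of its 746 spots, 258 scored highest for the outer root sheath list, 227 for dermal and 136 for upper follicle and sebaceous. A region led by Krtap4-9 and Gm11596 (739 spots) held no marker of the lists among its 20 leading genes, a region led by Gm6358 (130 spots) was shallow and had 1 spot in slice 1, and the remaining cluster, of 19 spots, was too small to use.

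**Figure D1:**
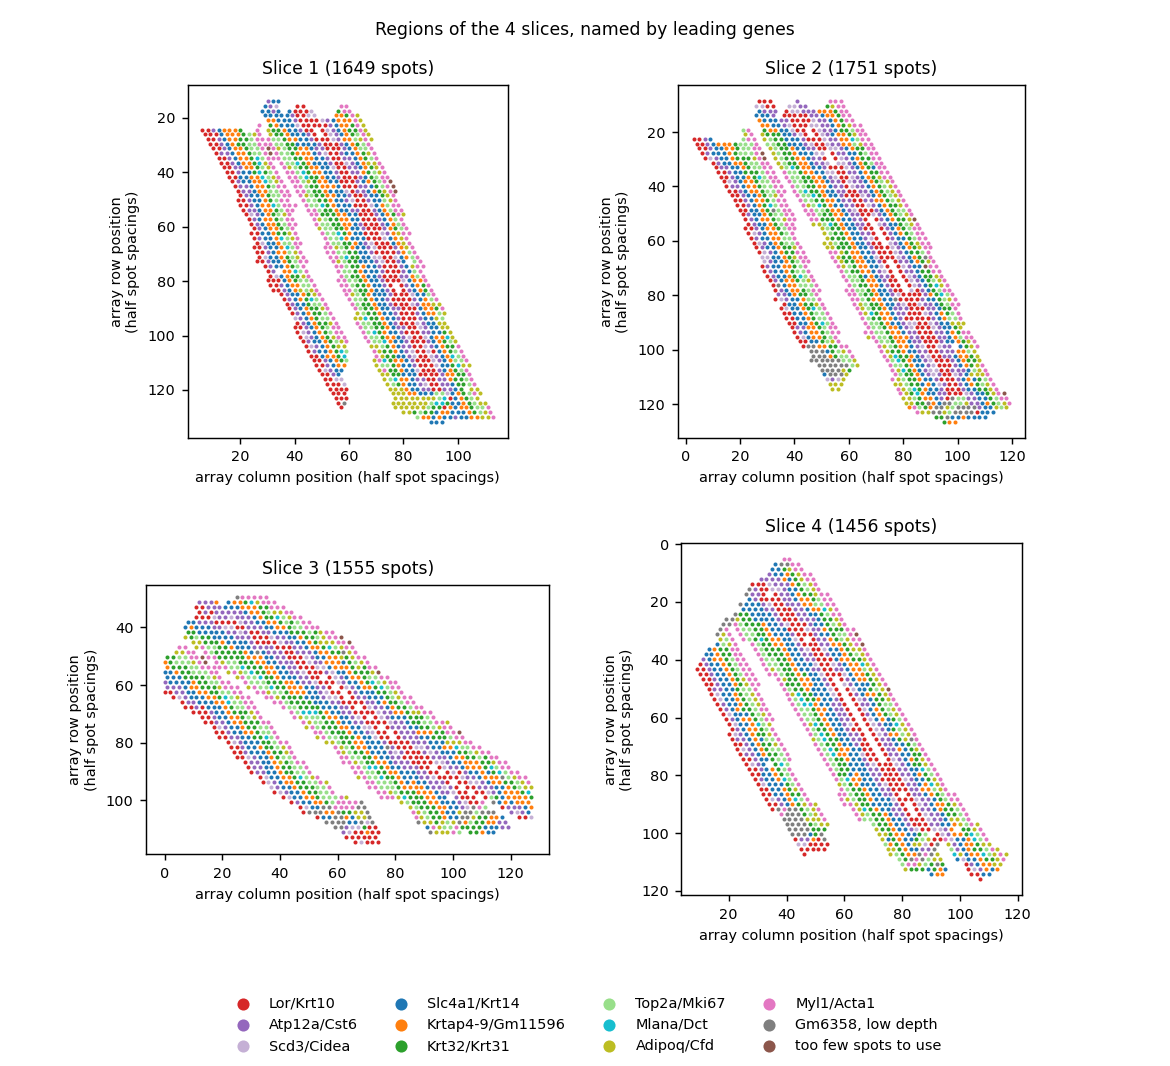
Spots of each slice at their array positions (both axes to the same scale), coloured by region. The 3 sections per slice run as bands, with the Lor/Krt10 region along one edge of each section and the Myl1/Acta1 region along the opposite edge.

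The Lor/Krt10 region was not pure epidermis: its summed dermal fibroblast markers (9 genes, none at 0) came to 33345 ± 2523 CPM against 6262 ± 668 in the Slc4a1/Krt14 region, and its summed immune markers (9 genes, none at 0) to 2096 ± 256 against 297 ± 20.2 CPM. Slice 1 stood apart in the Slc4a1/Krt14 region: with 16 clusters, with at least 500 genes per spot or with the laminin and integrin genes kept for clustering, 268 of 278, 267 of 276 and 271 of 279 spots of a cluster split from it came from slice 1. Without slice 1 the number of members that differed between the Lor/Krt10 and Slc4a1/Krt14 regions was 18 of 31 tested, in place of 22 of 33. The drop was not particular to slice 1, since without slice 2 the number was also 18, without slice 3 it was 22 and without slice 4 it was 20. Of all genes, 34.6%, 31.8%, 33.3% and 34.0% were called without slices 1 to 4, against 38.7% with all slices.

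Members summed to between 23 UMIs (Itgad) and 7659 UMIs (Lamb1) over all slices, and 8 had under 200. Of the 37, 33 passed the low-count filter when regions were compared, while Itga4, Itga10, Itgad and Lama1 did not. A highest region whose 4 slices all lay above those of the next was found for 6 members: Lamb3 and Itgb7 in the Lor/Krt10 region, Lama4 and Itga8 in the Scd3/Cidea region, Lamb1 in the Slc4a1/Krt14 region and Lama2 in the Myl1/Acta1 region. The share of all genes with such a region was not counted, so this number is a description. For the other 31 members the order of the leading regions lay within the spread between slices.

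**Figure D2:**
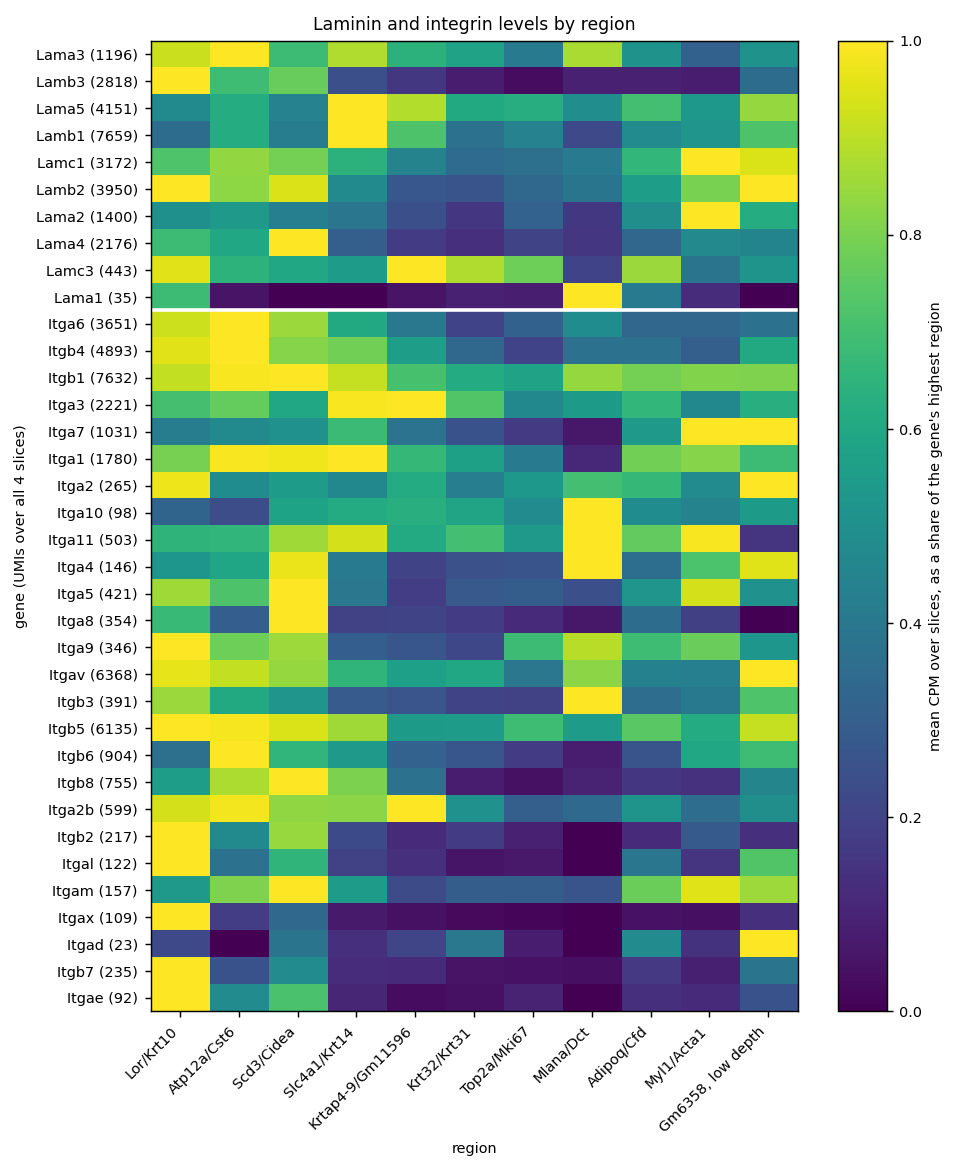
Mean CPM over slices of 36 genes in 11 regions, each as a share of the gene's own highest region, with UMIs over all slices in brackets (laminins above the white line). Lamb3 and Itgax are brighter in the 3 leftmost regions than in any other, Itgb7 is brightest in the Lor/Krt10 region, Lamb1 and Lama5 are brightest in the Slc4a1/Krt14 region, and Itgb1 varies least among the genes of high count.

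Between the Lor/Krt10 region and the Slc4a1/Krt14 region 22 of 33 members were called (edgeR, adjusted p under 0.05), where 38.7% of all 12867 genes were. 17 were higher in the Lor/Krt10 region (21.4% of all genes were) and 5 lower (17.4% were), with a median log2 fold change of 0.37 over the members and -0.00262 over all genes tested. The higher members were led by the leukocyte chains Itgax, Itgae, Itgb7, Itgal and Itgb2, followed by Lamb3, and the lower ones were Lamb1, Lama5, Itga7, Itgb8 and Itga3. When spots were assigned by marker score instead of clusters, 11 were higher and 7 lower, where 35.1% of all genes were called. The median depth per spot was 8876.5 UMIs in the Lor/Krt10 and 11210 in the Slc4a1/Krt14 region.

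Between the Lor/Krt10 region and the upper follicle and sebaceous regions (Atp12a/Cst6 and Scd3/Cidea together), the fewest members were called, 9 of 33, against 21.3% of all genes: Itgax, Itgb7, Itgal, Itga2, Itgb2 and Lamb3 were higher (11.8% of all genes were) and Itgb6, Lamb1 and Itgb8 lower (9.55% were). The count depended on how regions were drawn and ran from 3 to 17 over the alternatives, and the 3 calls left with marker-scored spots were these last 3. The count of 17 came from other clusterings, in which 27.8% and 27.0% of all genes were called. There the naming rule put a cluster with Slc4a1 and Krt14 among its leading genes into the upper follicle and sebaceous regions. The median log2 fold change was 0.04 over the members and 0.02 over all genes.

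Between the Slc4a1/Krt14 region and the hair shaft and matrix regions (Krt32/Krt31 and Top2a/Mki67 together), 24 of 33 members were called against 58.5% of all genes. The Krtap4-9/Gm11596 region, with Krtap genes among its leading genes, was on neither side. It came next after the Slc4a1/Krt14 region for Lamb1 (109 against 151 CPM) and Lama5 (59.8 against 67.6 CPM). Itga3 had its highest mean there (34.6 CPM), and Itgb5 (50.2 CPM) and Itga5 (1.67 CPM) their lowest. By marker score 335 of its spots fell to the outer root sheath and 216 to matrix and hair shaft. 23 were higher in the Slc4a1/Krt14 region (30.3% of all genes were) and 1, Lamc3, was lower (28.2% were). Over the members the median log2 fold change was 0.83, and over all genes -0.000438. Depth differed between these regions, with medians of 16293 UMIs per spot in the Krt32/Krt31 region and 25094 in the Top2a/Mki67 region, and its part in the result was not tested.

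**Figure D3:**
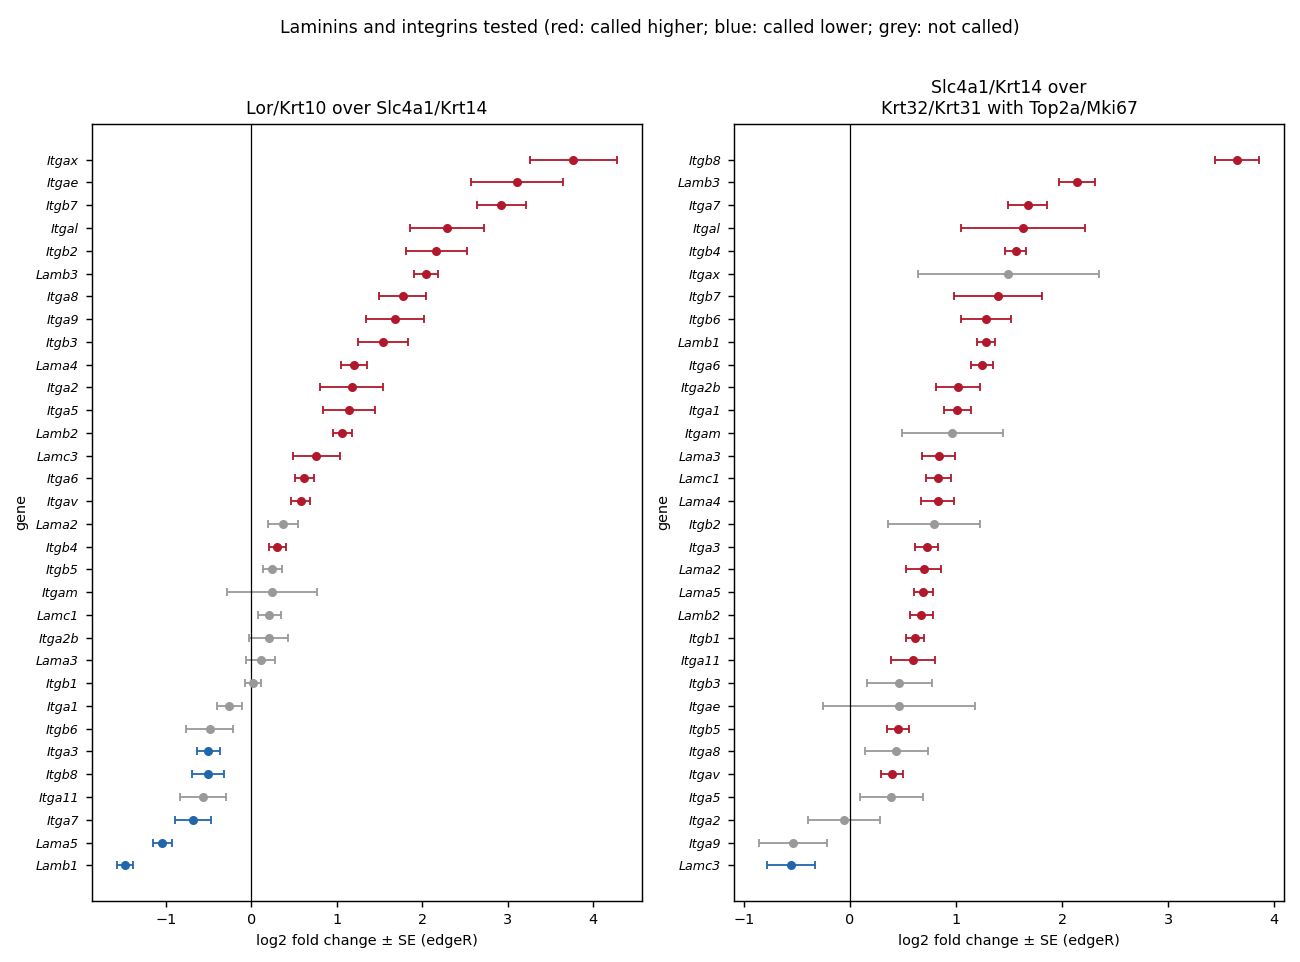
Fitted log2 fold change ± SE of 32 members tested, for the Lor/Krt10 over the Slc4a1/Krt14 region (left) and the Slc4a1/Krt14 over the Krt32/Krt31 and Top2a/Mki67 regions (right). Leukocyte chains and Lamb3 lead on the left and Lamb1 closes it, while on the right 22 members shown are red and Lamc3 alone is blue.

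Of Lama3 and Lamb3, the latter had the steeper pattern. In the Lor/Krt10 region it stood at 109, 155, 107 and 111 CPM in slices 1 to 4 and in the Slc4a1/Krt14 region at 25.5, 32.0, 32.7 and 28.2 CPM. Every slice of the first exceeded every slice of the second, with slice 2 above the other slices in the Lor/Krt10 region, and the log2 fold change was 2.04 ± 0.14 (SE, adjusted p = 1.08e-16, edgeR). In the hair shaft and matrix regions it fell to 4.26, 6.33, 7.27 and 9.28 CPM, 2.14 log2 units below the Slc4a1/Krt14 region (adjusted p = 1.81e-14). Against the upper follicle and sebaceous regions, at 77.0, 81.5, 90.6 and 92.9 CPM, its log2 fold change was 0.53 ± 0.12 (adjusted p = 0.000813), and without slice 2 this was 0.345 with an adjusted p of 0.0893.

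Lama3, the alpha chain of the same trimer, was flatter, at 21.1, 14.8, 17.0 and 22.7 CPM in the Lor/Krt10 region and 15.0, 21.3, 19.3 and 16.8 CPM in the Slc4a1/Krt14 region (log2 fold change 0.11 ± 0.17, adjusted p = 0.663), and 8.76, 9.73, 8.78 and 13.5 CPM in the hair shaft and matrix regions (log2 fold change 0.84 ± 0.15, adjusted p = 9.9e-06). Between the Lor/Krt10 and Slc4a1/Krt14 regions the change of Lamb3 exceeded that of Lama3 by a mean of 1.96 log2 units, in 4 of 4 slices, with p = 0.125 in an exact two-sided sign-flip permutation test, the smallest that 4 slices allow. The pair was chosen after its values had been seen.

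Lamb1, the beta chain of laminin-511, ran the other way. It stood at 57.3, 52.6, 52.4 and 49.8 CPM in the Lor/Krt10 region and 141, 152, 156 and 153 CPM in the Slc4a1/Krt14 region, with all 4 slices of the latter above all of the former (log2 fold change -1.48 ± 0.10, adjusted p = 3.08e-17). It was 80.7, 100.3, 89.8 and 74.2 CPM in the upper follicle and sebaceous regions, where the log2 fold change of the Lor/Krt10 region was -0.66 ± 0.10 (adjusted p = 1.21e-06), and 59.6, 59.5, 62.4 and 65.5 CPM in the hair shaft and matrix regions (log2 fold change of the Slc4a1/Krt14 region over these 1.28 ± 0.08, adjusted p = 2.44e-17). The change of Lamb3 relative to Lamb1 was a mean of 3.53 log2 units, between 3.29 and 3.81 in the 4 slices (p = 0.125, exact sign-flip permutation test). Both genes moved without overlap between slices and in opposite directions. The sign in every slice and this p were therefore fixed beforehand, and the value is a description.

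Lama5, the alpha chain of laminin-511, followed Lamb1, at 34.2, 26.0, 32.7 and 35.4 CPM in the Lor/Krt10 region and 57.7, 65.9, 73.5 and 73.3 CPM in the Slc4a1/Krt14 region (log2 fold change -1.04 ± 0.11, adjusted p = 7.32e-11), with no overlap between slices. Lamc1, the gamma chain that most laminins share, was not called between these regions, at 47.5, 34.9, 37.5 and 45.4 CPM in the Lor/Krt10 and 37.0, 30.4, 37.5 and 42.2 CPM in the Slc4a1/Krt14 region (log2 fold change 0.21 ± 0.13, adjusted p = 0.215). Its highest mean was in the Myl1/Acta1 region, 57.1 ± 3.30 CPM (SD, n = 4), within the spread of the Gm6358 region next in order.

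The promoters of the genes with opposite patterns are shown as the 250 bases before a RefSeq transcription start in GRCm38.p6, the build of the deposited data, from 5′ to 3′ on the gene's strand. Capitals mark GC boxes (GGGCGG or its reverse complement CCGCCC), the motif of Sp-family factors. Lamb3 is from chr1:193301744-193301993 (plus strand, the more upstream of 2 listed starts), Lamb1 from chr12:31265043-31265292 (plus strand) and Lama5 from chr2:180225860-180226109 (minus strand). The annotated genes begin further upstream than the starts used here. Lamb3 begins at 193294353, before its window, so that window lies within the gene. Lamb1 begins at 31265146 and Lama5, on the minus strand, at 180225904, each inside its window. The GC boxes of the Lamb1 window lie after the annotated gene start.
Lamb3: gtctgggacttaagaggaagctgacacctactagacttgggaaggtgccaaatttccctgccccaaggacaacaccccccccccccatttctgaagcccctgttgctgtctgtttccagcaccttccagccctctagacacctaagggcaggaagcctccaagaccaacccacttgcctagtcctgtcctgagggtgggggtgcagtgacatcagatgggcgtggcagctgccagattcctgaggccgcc
Lamb1: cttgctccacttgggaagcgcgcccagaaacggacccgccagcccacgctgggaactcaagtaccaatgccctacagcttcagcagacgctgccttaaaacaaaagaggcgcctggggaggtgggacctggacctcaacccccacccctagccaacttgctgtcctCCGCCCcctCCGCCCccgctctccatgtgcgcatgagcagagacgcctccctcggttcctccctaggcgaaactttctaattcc
Lama5: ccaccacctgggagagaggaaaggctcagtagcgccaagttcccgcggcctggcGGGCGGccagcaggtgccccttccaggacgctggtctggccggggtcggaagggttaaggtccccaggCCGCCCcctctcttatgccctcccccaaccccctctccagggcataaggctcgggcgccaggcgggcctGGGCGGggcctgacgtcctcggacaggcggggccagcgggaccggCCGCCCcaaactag
The Lamb3 window held 0 GC boxes, that of Lamb1 held 2 and that of Lama5 held 4, and G and C made up 58.8%, 62.0% and 72.4% of their bases. Of all 32851 windows of this length, 32.7% held a GC box. Of the 37 members, 23 had a window in the table and 8 of these held a GC box. No TATAAA or TGACGTCA was found in a window of any of the 23 (12.4% and 1.55% of all windows hold them), and TGANTCA was found in that of Itgax alone (6.75% of all windows). Both strands were searched, and no overlap between the motifs was removed. A match describes these letters and not a bound site.

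The remaining laminin chains marked other places. Lama2, the alpha chain of the muscle laminin, was highest in the Myl1/Acta1 region, at 33.2, 34.8, 36.5 and 35.9 CPM in slices 1 to 4, and next highest in the shallow Gm6358 region, at 9.47, 24.3 and 31.3 CPM in slices 2 to 4. Lama4, an alpha chain of vessel and nerve laminins, was highest in the Scd3/Cidea region, at 73.0, 77.4, 62.7 and 61.1 CPM against 50.6, 58.5, 38.1 and 40.4 CPM in the Lor/Krt10 region. In neither case did the slices of the first and the next region overlap. Lama4 was also higher in the Lor/Krt10 than in the Slc4a1/Krt14 region, where it was 19.6, 24.5, 21.2 and 17.9 CPM (log2 fold change 1.20 ± 0.15, adjusted p = 9e-09), as was Lamb2, the beta chain that replaces Lamb1 in laminins of muscle and nerve (log2 fold change 1.07 ± 0.11, adjusted p = 1.22e-10). Lamb2 stood at 69.6, 87.4, 89.9 and 75.3 CPM in the Lor/Krt10 and 34.4, 42, 39.0 and 38.6 CPM in the Slc4a1/Krt14 region. Lamb2 and Lamb3 were thus higher where Lamb1 was lower. Summed endothelial markers (7 genes) were 171 ± 19.3 CPM in the Lor/Krt10, 188 ± 27.7 in the Scd3/Cidea and 155 ± 31.5 in the Slc4a1/Krt14 region, and smooth muscle markers (6 genes) 465 ± 85.6, 692 ± 59.4 and 143 ± 16.1 CPM. The part of either in the Lama4 and Lamb2 levels was not tested.

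Lamc3, a gamma chain of low level, was the 1 member lower in the Slc4a1/Krt14 than in the hair shaft and matrix regions, at 3.49, 4.84, 3.34 and 3.22 against 3.65, 5.84, 6.04 and 6.83 CPM (log2 fold change -0.56 ± 0.23, adjusted p = 0.0353). The ranges overlap, and the call was lost without slice 2, 3 or 4 (adjusted p = 0.0625, 0.236 and 0.233), with DESeq2 (adjusted p = 0.102) and with marker-scored spots (0.01, adjusted p = 0.985). Lama1, the alpha chain of embryonic basement membranes, had 35 UMIs in all. It had 13 of these in the Lor/Krt10 region, at 2.34, 1.18, 1.36 and 1.11 CPM, and 0 in the Slc4a1/Krt14 and Scd3/Cidea regions, and was not tested.

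**Figure D4:**
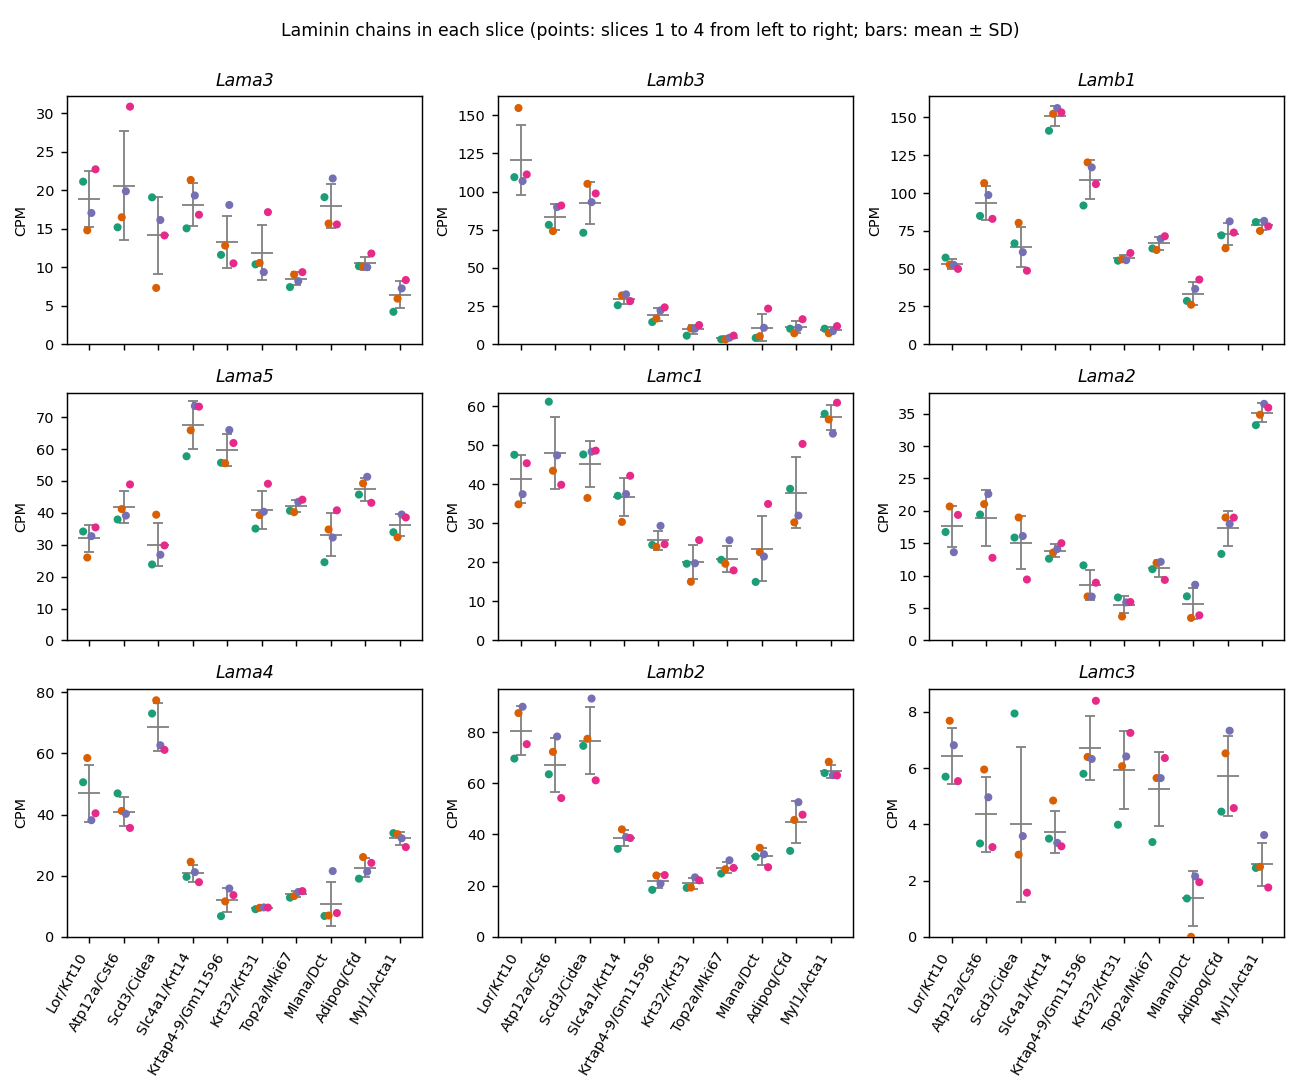
CPM of 9 laminin chains in 10 regions, with a point for each slice and the mean ± SD (n = 4). Lamb3 drops between the third and the fourth region from the left, where Lamb1 and Lama5 rise to their highest level, and Lama2 is highest in the Myl1/Acta1 region.

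The hemidesmosomal pair moved together and less steeply than Lamb3. Itga6, the alpha chain, stood at 73.0, 69.1, 73.6 and 92.4 CPM in the Lor/Krt10, 49.7, 46.2, 45.3 and 60.8 CPM in the Slc4a1/Krt14 and 16.5, 19.7, 23.9 and 25.6 CPM in the hair shaft and matrix regions, with no overlap between neighbours in that order (log2 fold changes 0.62 ± 0.11 and 1.25 ± 0.11, adjusted p = 6.01e-06 and 1.8e-13). Itgb4, its beta chain, stood at 103, 84.5, 93.3 and 106 CPM in the Lor/Krt10 region. In the Slc4a1/Krt14 region it stood at 78.9, 69.7, 90.5 and 80.1 CPM and in the hair shaft and matrix regions at 23.0, 24.5, 27.3 and 34.0 CPM. Its first step was small (log2 fold change 0.30 ± 0.10, adjusted p = 0.0147), with overlapping slices, and was no longer called without slice 1, 2 or 4 (adjusted p = 0.071, 0.0693 and 0.0827) or with marker-scored spots (0.122), whereas the second was 1.56 ± 0.10 (adjusted p = 2.44e-17). Between the Lor/Krt10 and the upper follicle and sebaceous regions neither gene was called, with log2 fold changes of -0.02 ± 0.10 for Itga6 and 0.04 ± 0.10 for Itgb4, but with 16 clusters both were higher in the region led by Lor (0.41, adjusted p = 0.00531, and 0.37, adjusted p = 0.00897). The upper follicle and sebaceous regions of the 16 clusters took in a cluster of 790 spots with Slc4a1 and Krt14 among its leading genes. Over the 35 sums of a slice and region the pair had a Spearman correlation of 0.866, as a description, since these sums share libraries and depth.

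Itgb1, the common beta chain, varied little, from 108 ± 18.5 CPM in the Scd3/Cidea to 62.1 ± 8.23 CPM in the Top2a/Mki67 region. It was 99.4, 89.8, 93.3 and 111 CPM in the Lor/Krt10 and 86.2, 91.4, 101 and 117 CPM in the Slc4a1/Krt14 region (log2 fold change 0.02 ± 0.09, adjusted p = 0.903, or -0.27 with 0.0172 with marker-scored spots), and 62.4, 59.0, 59.7 and 76.0 CPM in the hair shaft and matrix regions (log2 fold change 0.61 ± 0.09, adjusted p = 1.01e-07). Itga3, which pairs with it as a receptor for laminins of the epidermis, was lower in the Lor/Krt10 region, at 19.4, 24.8, 25.9 and 27.7 CPM, than in the Slc4a1/Krt14 region, at 30.6, 34.2, 34.1 and 38.2 CPM, without overlap (log2 fold change -0.50 ± 0.13, adjusted p = 0.00187). Itga7, the muscle laminin receptor, was higher in the Slc4a1/Krt14 region, at 11.5, 19.4, 16 and 18.6 CPM, than in the Lor/Krt10 region, at 9.04, 9.45, 10.9 and 11.1 CPM (log2 fold change -0.68 ± 0.21, adjusted p = 0.00937, -0.57 with 0.0643 without slice 2, and -0.35 with 0.284 with marker-scored spots). It was higher there than in the hair shaft and matrix regions too (log2 fold change 1.68 ± 0.18, adjusted p = 1.98e-10). Skeletal muscle markers (10 genes) summed to 1174 ± 229 CPM in the Slc4a1/Krt14 and 1568 ± 364 CPM in the Lor/Krt10 region, and their part in the Itga7 levels was not tested.

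Itga8, whose chain binds nephronectin and marks the arrector pili attachment, was highest in the Scd3/Cidea region, at 14.3, 17.5, 14.3 and 12.5 CPM against 10.7, 8.86, 8.85 and 11.1 CPM in the Lor/Krt10 region, without overlap. It fell to 2.68, 3.55, 2.23 and 3.22 CPM in the Slc4a1/Krt14 region (log2 fold change of the Lor/Krt10 over this region 1.77 ± 0.28, adjusted p = 9.85e-07). Npnt, which encodes nephronectin, was at 18.1, 20.1, 24.5 and 25.5 CPM in the Lor/Krt10 and 7.79, 5.49, 7.79 and 6.43 CPM in the Slc4a1/Krt14 region (log2 fold change 1.65 ± 0.21, adjusted p = 1.45e-08). Smooth muscle markers ran the same way, as given above for Lama4, and their part was not tested.

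Among the partners of Itgav, Itgb6 and Itgb8, which bind latent TGF-beta, were lower in the Lor/Krt10 region than in the upper follicle and sebaceous regions. Itgb6 stood at 10, 5.32, 8.85 and 11.1 against 17.5, 25.4, 17.3 and 27.4 CPM (log2 fold change -1.24 ± 0.26, adjusted p = 0.000229), and Itgb8 at 13.4, 13.6, 11.6 and 12.7 against 15.7, 21.6, 23.2 and 23.4 CPM (log2 fold change -0.65 ± 0.19, adjusted p = 0.00803). Neither pair of ranges overlaps, and the Itgb8 call was lost without slice 3 or 4 (adjusted p = 0.0561 and 0.0603). Itgb8 had the widest step of any member between the Slc4a1/Krt14 region, at 18.3, 19.4, 14.1 and 22.5 CPM, and the hair shaft and matrix regions, at 1.34, 1.22, 1.37 and 1.93 CPM (log2 fold change 3.65 ± 0.21, adjusted p = 4.07e-19). It was also higher in the Slc4a1/Krt14 than in the Lor/Krt10 region (log2 fold change -0.51 ± 0.19, adjusted p = 0.0267), a call lost without slice 1, 2 or 4 (adjusted p = 0.0697, 0.0583 and 0.124) and with DESeq2 (0.0543). Itgav itself was 99.1, 121, 119 and 104 CPM in the Lor/Krt10 and 62.8, 71.4, 83.9 and 82.6 CPM in the Slc4a1/Krt14 region (log2 fold change 0.58 ± 0.11, adjusted p = 1.64e-05), and Itgb5 did not differ detectably there (log2 fold change 0.25 ± 0.11, adjusted p = 0.0796).

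The leukocyte chains were low, and 5 of them were higher in the Lor/Krt10 than in the Slc4a1/Krt14 region. Itgax, which marks dendritic cells and macrophages, had 109 UMIs in all, at 7.70, 11.8, 5.45 and 8.30 CPM in the Lor/Krt10 and 0, 0.969, 0.371 and 1.07 CPM in the Slc4a1/Krt14 region (log2 fold change 3.77 ± 0.51, adjusted p = 6.87e-08). Itgb7, a lymphocyte chain, stood at 13.7, 12.4, 14.3 and 12.2 against 1.88, 1.61, 1.86 and 1.43 CPM (log2 fold change 2.93 ± 0.29, adjusted p = 1.33e-11), and Itgae, its partner in the receptor for E-cadherin, at 4.35, 4.73, 6.13 and 3.32 against 0.268, 0.646, 0 and 1.07 CPM (log2 fold change 3.11 ± 0.54, adjusted p = 8.26e-06). Itgal and Itgb2, which form the receptor for Icam1, gave log2 fold changes of 2.29 ± 0.43 and 2.17 ± 0.36 (adjusted p = 2.93e-05 and 3.88e-06). For none of the 5 did a slice of the Slc4a1/Krt14 region reach a slice of the Lor/Krt10 region. With marker-scored spots Itgal was no longer called (1.08, adjusted p = 0.111) and the other 4 were. Against dermal-scored spots the order was not the same for all 5. Itgal was 2.66 ± 2.29 CPM in epidermal-scored and 5.23 ± 2.13 CPM in dermal-scored spots (SD, n = 4), Itgb2 5.28 ± 1.85 and 6.90 ± 1.58 CPM, and Itgae 2.88 ± 0.501 and 3.23 ± 0.517 CPM, with adjusted p of 0.258, 0.739 and 0.97. Means of these 3 were thus highest outside the epidermal-scored spots.

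Against the upper follicle and sebaceous regions, Itgax and Itgb7 were again higher in the Lor/Krt10 region (log2 fold changes 2.14 ± 0.42 and 1.74 ± 0.25, adjusted p = 0.000113 and 4.48e-07). The calls of Itgal (1.18 ± 0.38, adjusted p = 0.0203) and Itgb2 (0.89 ± 0.31, adjusted p = 0.0339) were lost without slice 2 (0.13 and 0.3), and that of Itgal also without slice 4 (0.118) and that of Itgb2 without slice 3 (0.118). With marker-scored spots none of the 4 was called (Itgax 1.27, adjusted p = 0.119, Itgb7 0.59, adjusted p = 0.205, Itgal 0.19, adjusted p = 0.897, and Itgb2 -0.26, adjusted p = 0.791). The summed immune markers were also highest in the Lor/Krt10 region, at 1812 to 2427 CPM over its slices against 816 to 1188 in the Scd3/Cidea, 567 to 759.8 in the Atp12a/Cst6 and 281 to 325 in the Slc4a1/Krt14 region, and their part in these levels was not tested. In the Slc4a1/Krt14 region Itgb7 and Itgal still exceeded the hair shaft and matrix regions (log2 fold changes 1.40 ± 0.42 and 1.63 ± 0.58, adjusted p = 0.00381 and 0.0161), though Itgal lost its call without slice 1 or 2 (0.147 and 0.0929).

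Of the other integrin chains, Itga9 (1.68 ± 0.34), Itgb3 (1.54 ± 0.30), Itga2 (1.18 ± 0.37) and Itga5 (1.14 ± 0.31) were higher in the Lor/Krt10 than in the Slc4a1/Krt14 region on the log2 scale, with adjusted p of 8.59e-05, 3.57e-05, 0.00905 and 0.00236. Itga2, a collagen receptor chain of keratinocytes, overlapped between the regions and the other 3 did not. With marker-scored spots Itga9 was 0.89 (adjusted p = 0.0487), and Itgb3 (0.76, adjusted p = 0.0501), Itga2 (0.70, adjusted p = 0.178) and Itga5 (0.70, adjusted p = 0.0849) were not called. Itga1 and Itga11, which also bind collagen, were not called there (-0.26 ± 0.15 and -0.56 ± 0.27, adjusted p = 0.183 and 0.0963) but were higher in the Slc4a1/Krt14 than in the hair shaft and matrix regions (1.01 ± 0.13 and 0.59 ± 0.21, adjusted p = 8.74e-09 and 0.013). Itga2b, the platelet chain, behaved likewise (0.20 ± 0.23, adjusted p = 0.518, and 1.02 ± 0.21, adjusted p = 4.82e-05). Itgam, a chain of myeloid cells with 157 UMIs, gave 0.24 ± 0.52 and 0.96 ± 0.47 in these comparisons (adjusted p = 0.76 and 0.0764). Itga4, Itga10 and Itgad had 146, 98 and 23 UMIs and were not tested between regions.

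No cluster was led by dermal fibroblast genes, so epithelium, muscle and fat were compared with dermis in spots assigned to the marker list they scored highest for. The 579 dermal-scored spots came from the Atp12a/Cst6 (227), Lor/Krt10 (145) and Slc4a1/Krt14 (114) clusters for the most part, and their basal keratinocyte markers (5 genes) summed to 8409 ± 718 CPM against 7207 ± 459 CPM in the 697 epidermal-scored spots. They held follicle beside dermis. Between epidermal-scored and dermal-scored spots 11 of 33 members were called, against 19.2% of all genes, with 5 higher (11.0% of all genes) and 6 lower (8.12%) in the epidermal-scored spots, or 3 and 7 when scaled by library size alone. With that scaling 18.4% of all genes were called. With 16 clusters the naming rule took a cluster of 452 spots as dermal, but its leading genes were H2-Ab1, Cd74 and H2-Aa with Col1a1 and Col1a2, and 3 immune, 2 dermal fibroblast and 2 upper follicle markers were among its 20 leading genes. In that setting the cluster led by Lor shrank to 413 spots, from 842 with 12 clusters. How many spots of the Lor/Krt10 region went to the H2-Ab1/Col1a1 cluster was not counted, so that cluster may hold superficial spots and is no pure dermis. Against this H2-Ab1/Col1a1 cluster, 1 member was higher and 9 were lower in the region led by Lor, where 11.7% of all genes were called, and 5 of the 11 calls were kept. The median log2 fold change was -0.26 over members and -0.00201 over all genes.

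Lamb3 of laminin-332 was higher in the epidermal-scored spots, at 108, 146, 102 and 101 against 53.9, 76.1, 73.2 and 61.5 CPM (log2 fold change 0.87 ± 0.15, adjusted p = 2.01e-05). Lama3 gave 0.46 ± 0.20 (adjusted p = 0.111). Itga6 was higher (0.43 ± 0.11, adjusted p = 0.00486, and 0.0705 with library size alone), and so was Itgb4 (0.35 ± 0.11, adjusted p = 0.0166) in 3 of 4 slices, whose call was lost without slice 1, 3 or 4 (0.123, 0.133 and 0.111). Other laminin chains were lower: Lamb1 at 47.8, 42.7, 55.3 and 61.8 against 99.5, 115, 107 and 95.3 CPM (-0.93 ± 0.10, adjusted p = 3.52e-09), Lama2 (-0.80 ± 0.18, adjusted p = 0.000901), Lama4 (-0.57 ± 0.14, adjusted p = 0.00205) and Lamc1 (-0.57 ± 0.14, adjusted p = 0.00187, and 0.0623 without slice 1). Itgb1 was lower as well, at 80.3, 77.6, 75.5 and 87.3 against 104, 116, 116 and 138 CPM (-0.47 ± 0.09, adjusted p = 0.000172). Itgb6 was lower (-0.97 ± 0.29, adjusted p = 0.0145, and 0.0824 without slice 2), and Itgb7 was higher (0.91 ± 0.28, adjusted p = 0.0166), with its call lost without slice 2, 3 or 4 (0.136, 0.0802 and 0.106). Against the H2-Ab1/Col1a1 cluster, Lamb3 (0.25, adjusted p = 0.34), Itga6 (0.37, adjusted p = 0.068), Lamc1 (-0.54, adjusted p = 0.0561) and Itgb6 (-0.85, adjusted p = 0.256) were no longer called, the value of Itgb7 changed sign (-0.47, adjusted p = 0.428), and Itgal (-1.71, adjusted p = 0.0399) and Itgb2 (-1.28, adjusted p = 0.0462) were lower in the region led by Lor.

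Muscle-scored spots (1144) were lower than dermal-scored spots in 21 members and higher in 2, with 23 of 33 called against 51.3% of all genes (25.4% higher and 25.9% lower), and medians of -0.63 over members and 0.01 over all genes. Itga7 was one of the pair that was higher, at 16, 17.5, 23.5 and 22.2 against 12.1, 13.9, 16.3 and 12.2 CPM (log2 fold change 0.64 ± 0.20, adjusted p = 0.0069, and 0.0669 without slice 4), with overlapping slices. Lama2 was the other, at 26.9, 29.0, 29.7 and 31.3 against 25.6, 29.5, 26.3 and 17.6 CPM, higher in 3 of 4 slices (0.32 ± 0.13, adjusted p = 0.0426), and was no longer called without slice 3 or 4 (0.111 and 0.412), with DESeq2 (0.101) or with library size alone (0.176). The falls were led by Itgax (-2.90 ± 0.62), Lamb3 (-2.59 ± 0.18), Itgal (-2.14 ± 0.44), Itgae (-2.11 ± 0.47) and Itgb8 (-2.05 ± 0.24), with adjusted p from 1.36e-14 to 0.000355. Lamb1 fell by 0.34 on the log2 scale (adjusted p = 0.00134), but rose by 0.27 (adjusted p = 0.0355) when muscle was set against the H2-Ab1/Col1a1 cluster.

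Adipose-scored spots (802) were lower in 21 of 33 members and higher in 0 (edgeR, with 0 higher at an unadjusted p under 0.05 and 0 with DESeq2, and with 1 higher, Lama5 at 0.71, adjusted p = 0.000316, when the fat cluster was set against the H2-Ab1/Col1a1 cluster), against 36.4% of all genes called (16.7% higher and 19.7% lower). The medians were -0.70 over members and 0.02 over all genes. The members lowest relative to dermal-scored spots were again leukocyte chains, Itgae (-3.52 ± 0.62), Itgax (-3.10 ± 0.69), Itgal (-2.60 ± 0.51), Itgb7 (-1.93 ± 0.36) and Itgb2 (-1.93 ± 0.45), with adjusted p from 2.95e-05 to 0.000885. Of the laminins, Lama4 stood at 18.6, 25.8, 30.2 and 19.5 against 58.1, 62.8, 49.0 and 58.1 CPM (-1.26 ± 0.13, adjusted p = 1.7e-09) and Lamb2 at 31.0, 33.4, 42.4 and 33.8 against 71.1, 91.1, 83.8 and 79.8 CPM (-1.18 ± 0.12, adjusted p = 3.7e-10). These spots were mainly follicle by cluster, with 212 from the Slc4a1/Krt14, 137 from the Krtap4-9/Gm11596, 126 from the Krt32/Krt31, 94 from the Top2a/Mki67 and 89 from the Atp12a/Cst6 cluster and 102 from the Adipoq/Cfd cluster. When sums were made per strip of a slice, 13 of the 20 members then tested were lower, where 45.1% of all genes were called. The muscle and the adipose comparisons share the dermal-scored spots. Immune markers summed to 1389 ± 319.6 CPM in dermal-scored, 300.0 ± 41.0 in muscle-scored and 279 ± 35.8 in adipose-scored spots.

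Distance was counted as the smallest number of moves between neighbouring spots to reach a Lor/Krt10 spot of the same slice, and each log2 fold change between bands is that of the band nearer the surface over the deeper one. From step 0 to steps 1 and 2, 17 of 34 members were called, against 26.0% of all genes, with 13 higher at step 0 (14.2% of all genes) and 4 lower (11.9%), and medians of 0.175 over members and -0.00557 over all genes. The step 0 spots are those of the Lor/Krt10 region itself, so this comparison shares them with those above. The 13 were led by Itgax (2.61 ± 0.37), Itgb7 (1.99 ± 0.19), Itgae (1.42 ± 0.36), Itgal (1.39 ± 0.28) and Itgb2 (1.25 ± 0.27), and held Lamb3 (0.97 ± 0.13, adjusted p = 5.24e-06). The 4 were Itgb6 (-1.01 ± 0.24), Lamb1 (-0.97 ± 0.09), Itgb8 (-0.59 ± 0.16) and Lama5 (-0.46 ± 0.09), and of these Itgb6 lost its call without slice 2 (adjusted p = 0.0538) and Itgb8 without slice 4 (0.0677). With step 0 set by marker score, 4 were higher (Itgax, Itgb7, Lamb3 and Itga6) and 5 lower (the same 4 and Itgb1), while Itgae (0.43, adjusted p = 0.535), Itgal (0.14, adjusted p = 0.887) and Itgb2 (0.34, adjusted p = 0.521) were not called. Of all genes 21.2% were called with that step 0. With 16 clusters the cluster led by Lor held 413 spots in place of 842, beside the separate H2-Ab1/Col1a1 cluster of 452 spots. In that setting 19.9% of all genes were called. None of the 5 leukocyte chains was called there and the values of 3 changed sign: Itgax gave 1.06, adjusted p = 0.113, Itgb7 0.69, adjusted p = 0.0615, Itgae -0.17, adjusted p = 0.865, Itgal -0.57, adjusted p = 0.49 and Itgb2 -0.35, adjusted p = 0.613. The 3 members higher at step 0 were then Lamb3 (0.64, adjusted p = 0.0012), Itgb4 (0.37, adjusted p = 0.0107) and Itga6 (0.35, adjusted p = 0.0169). Lama5 lost its call as well (-0.09, adjusted p = 0.755).

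From steps 1 and 2 to steps 3 to 5, the pattern was a general fall: 27 of 34 members were called against 54.2% of all genes, 24 higher nearer the surface (24.9% of all genes) and 3 lower (29.3%). The bands differed in their regions. Steps 1 and 2 held 44.8% Atp12a/Cst6, 31.1% Slc4a1/Krt14 and 15.5% Scd3/Cidea spots. Steps 3 to 5 held 30% Krtap4-9/Gm11596, 27% Krt32/Krt31 and 22.7% Slc4a1/Krt14 spots. The part of these shares in the fall was not tested. The medians were 0.69 over members and -0.0623 over all genes, the latter moving to 0.055 with library size alone. Besides Itgax, Itgae and Itgb7, the largest falls were of Lamb3, from 49.8, 64.5, 68.1 and 67.6 to 12.2, 17.3, 17.5 and 21.2 CPM (1.77 ± 0.14, adjusted p = 6.49e-10), and of Lama4, from 35.7, 44.3, 36.1 and 35.3 to 12.9, 12.8, 15.3 and 12.9 CPM (1.37 ± 0.12, adjusted p = 2.55e-09). Both fell in every slice. Itga6 was higher nearer the surface by 1.06 ± 0.09 log2 units (adjusted p = 1.18e-09). The 3 that were higher at steps 3 to 5 were Lamc3 (-0.82 ± 0.21), Lama5 (-0.41 ± 0.07) and Itga3 (-0.31 ± 0.10), the last in 3 of 4 slices, with its call lost without slice 2, 3 or 4 (adjusted p = 0.191, 0.223 and 0.0607), with DESeq2 (0.0539), with library size alone (0.181) and with marker-scored spots (0.0731). Lamc3 lost its call with 16 clusters (-0.28, adjusted p = 0.292) and with marker-scored spots (-0.38, adjusted p = 0.138), and with 16 clusters Lamb1 was higher at steps 3 to 5 (-0.56, adjusted p = 5.66e-06).

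From steps 3 to 5 to steps 6 and more, the members divided. 19 of 34 were called against 46.8% of all genes, with 13 higher at steps 3 to 5 (24.7% of all genes) and 6 higher at depth (22.1%), and medians of 0.145 over members and -0.0115 over all genes. Itgb8 (1.88 ± 0.18), Lamb3 (1.41 ± 0.17), Itga2b (1.11 ± 0.20) and Itgb4 (0.91 ± 0.08) went on falling, and Itga3 (0.87 ± 0.10), Lama3 (0.86 ± 0.12), Lama5 (0.64 ± 0.07) and Lamb1 (0.57 ± 0.07) fell as well. The 6 that rose with depth were Lama2 (-0.90 ± 0.11), Itga9 (-0.80 ± 0.19), Itga5 (-0.62 ± 0.16), Lamb2 (-0.62 ± 0.09), Lama4 (-0.53 ± 0.12) and Lamc1 (-0.38 ± 0.10). Lama2 went from 10.2, 9.35, 9.18 and 10.5 to 18.4, 18.4, 22.0 and 20.3 CPM, with no overlap. Spots of the Myl1/Acta1 region made up 2.33% of steps 3 to 5 and 40.6% of steps 6 and more, and without them the same values were -0.20, -0.67, -0.06, -0.24, -0.19 and 0.10. Itga9, an alpha chain that binds tenascin, was then the 1 of the 6 still called (adjusted p = 0.0113), and 16 members fell. Without the Myl1/Acta1 spots 46.7% of all genes were called. With 16 clusters Itga5 (-0.38, adjusted p = 0.0752), Lamb2 (-0.22, adjusted p = 0.053), Lama4 (-0.12, adjusted p = 0.401) and Lamc1 (-0.04, adjusted p = 0.737) were not called.

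Single steps were compared by their values alone. Lamb3 was lower at each step up to step 7, from 121 ± 22.9 CPM at step 0 to 85.7 ± 11.2 at step 1, 41.2 ± 9.20 at step 2 and 6.71 ± 2.07 at step 6 (SD, n = 4). Lamb1 went from 53.0 ± 3.09 at step 0 to 129 ± 8.89 at step 2 and 134 ± 14.7 at step 3, and was 65.7 ± 4.30 at step 5. Of steps 0 to 8, the surface step was thus the highest for Lamb3 and the lowest for Lamb1. Itgb6 was highest at step 1, 22.8 ± 6.27 CPM against 8.82 ± 2.51 at step 0 and 14.5 ± 2.48 at step 2, with Itgb8 at 19.8 ± 3.09 at step 1 and 20 ± 2.71 at step 2. Itga3 peaked at steps 3 and 4, 35.4 ± 4.71 and 34.5 ± 6.32 CPM. Lama2 was lowest at steps 4 and 5, 9.28 ± 2.08 and 9.06 ± 0.536 CPM, and 35.1 ± 7.02 at step 8, while skeletal muscle markers went from 2721 ± 1333 to 34584 ± 2935 CPM between steps 5 and 8.

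**Figure D5:**
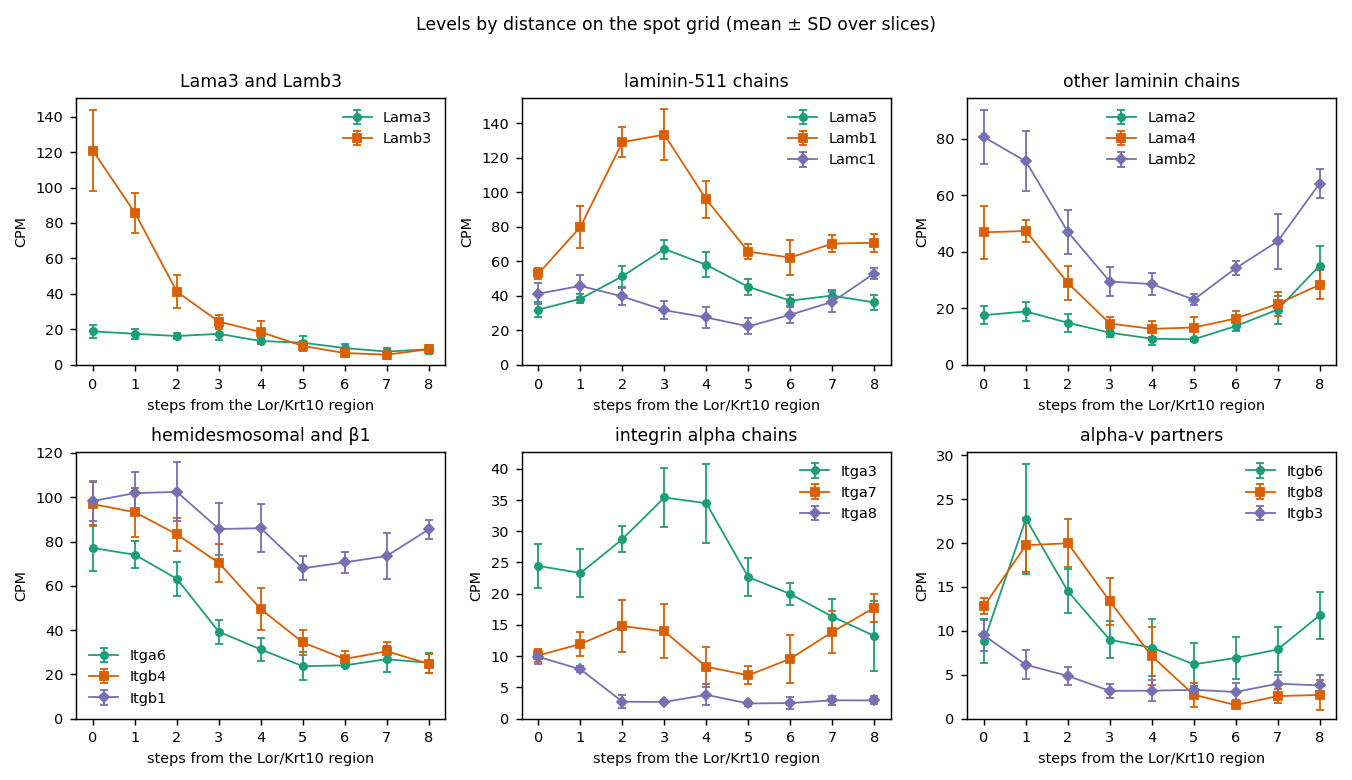
Mean CPM ± SD (n = 4 slices) of 17 members at steps 0 to 8 from the Lor/Krt10 region. Lamb3 falls from step 0 while Lamb1 peaks at steps 2 and 3, Lama2 and Lamb2 form a trough at steps 3 to 5, Itgb4 declines to step 6, and Itgb6 and Itgb8 peak at steps 1 and 2.

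Genes that work with laminins and integrins were read from 5 lists, and their counts and medians stand against the shares and medians of all genes given above for each comparison. Between the Lor/Krt10 and Slc4a1/Krt14 regions, 2 of 11 basement membrane genes were higher and 6 lower, 3 of 9 hemidesmosome and laminin receptor genes were higher and 4 lower, 2 of 3 anchoring fibril and Fraser complex genes were higher and 1 lower, 4 of 10 integrin ligands were higher and 3 lower, and 1 of 13 integrin adaptors was higher and 4 lower. In that order the list medians of log2 fold change were -0.695, -0.0893, 1.15, 0.434 and -0.106. The largest changes were of Col7a1 (3.11 ± 0.18), Tnc (-1.94 ± 0.13) and Fermt3 (1.80 ± 0.24). Col7a1, the collagen of the anchoring fibrils that bind laminin-332, stood at 58.9, 91.0, 68.1 and 58.7 CPM in the Lor/Krt10 and 9.13, 6.78, 5.94 and 9.65 CPM in the Slc4a1/Krt14 region, without overlap. Tnc, a matrix glycoprotein bound by Itga9 and alpha-v integrins, stood at 29.8, 24.2, 39.5 and 36.5 CPM in the Lor/Krt10 and 126, 119, 132 and 122 CPM in the Slc4a1/Krt14 region. Fermt3 encodes the kindlin of blood cells. Basement membrane genes thus were more often lower than higher, and Col7a1 higher, in the region where Lamb3 was highest.

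Against the upper follicle and sebaceous regions, 4 of 11 basement membrane genes were lower, 2 of 9 hemidesmosome and laminin receptor genes were higher and 2 lower, 1 of 3 anchoring fibril and Fraser complex genes was higher and 1 lower, 3 of 10 integrin ligands were lower, and 1 of 13 integrin adaptors was higher and 5 lower. The 5 list medians, in the same order, were -0.442, -0.125, -0.21, -0.125 and -0.0748. The largest changes were of Fermt3 (1.72 ± 0.24), Tnc (-1.62 ± 0.14) and Postn (-0.97 ± 0.11), where Postn encodes periostin, a ligand of alpha-v integrins. Between the Slc4a1/Krt14 and the hair shaft and matrix regions, 10 of 11 basement membrane genes were higher, 7 of 9 hemidesmosome and laminin receptor genes were higher, 3 of 3 anchoring fibril and Fraser complex genes were higher, 8 of 10 integrin ligands were higher, and 8 of 13 integrin adaptors were higher and 1 lower. Here the medians were 1.21, 0.883, 1.48, 0.809 and 0.424. These were led by Tnc (2.96 ± 0.12), Col17a1 (2.94 ± 0.13) and Ntn4 (2.24 ± 0.21), where Col17a1 is the hemidesmosomal collagen and Ntn4 a netrin of basement membranes.

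In epidermal-scored against dermal-scored spots, 6 of 11 basement membrane genes were lower, 2 of 9 hemidesmosome and laminin receptor genes were higher and 2 lower, 1 of 3 anchoring fibril and Fraser complex genes was higher, 1 of 9 integrin ligands was higher and 4 lower, and 1 of 13 integrin adaptors was higher and 7 lower. Their median log2 fold changes were -0.508, -0.253, 0.308, -0.14 and -0.478. The largest changes were of Vtn (-1.85 ± 0.42), Postn (-1.50 ± 0.11) and Col7a1 (1.28 ± 0.17). In muscle-scored against dermal-scored spots, 7 of 11 basement membrane genes were lower, 3 of 9 hemidesmosome and laminin receptor genes were higher and 3 lower, 2 of 3 anchoring fibril and Fraser complex genes were lower, 7 of 9 integrin ligands were lower, and 3 of 13 integrin adaptors were higher and 5 lower. Medians by list were -0.595, -0.0786, -1.68, -0.855 and -0.0472. Sgca, a sarcoglycan of the muscle laminin receptor complex, led (4.06 ± 0.26), followed by Col17a1 (-2.27 ± 0.16) and Col7a1 (-2.23 ± 0.22). In adipose-scored against dermal-scored spots, 5 of 11 basement membrane genes were lower, 1 of 9 hemidesmosome and laminin receptor genes was higher and 5 lower, 2 of 3 anchoring fibril and Fraser complex genes were lower, 8 of 9 integrin ligands were lower, and 3 of 13 integrin adaptors were lower. The list medians here were -0.562, -0.238, -1.48, -0.798 and -0.195. The largest changes were of Col7a1 (-1.99 ± 0.23), Frem2 (-1.48 ± 0.25) and Col17a1 (-1.28 ± 0.15), where Frem2 belongs to the Fraser complex that fastens epidermis to dermis.

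Along the distance from the surface the counts changed from band to band. At step 0 against steps 1 and 2, 6 of 11 basement membrane genes were lower, 2 of 9 hemidesmosome and laminin receptor genes were higher and 3 lower, 1 of 4 anchoring fibril and Fraser complex genes was higher and 1 lower, 2 of 11 integrin ligands were higher and 3 lower, and 1 of 13 integrin adaptors was higher and 5 lower. The medians of the lists were -0.5, -0.183, 0.513, 0.043 and -0.0564. Among these genes the largest changes were of Tnc (-1.70 ± 0.12), Fermt3 (1.55 ± 0.24) and Fras1 (-1.31 ± 0.26). At steps 1 and 2 against steps 3 to 5, 8 of 11 basement membrane genes were higher, 7 of 9 hemidesmosome and laminin receptor genes were higher and 1 lower, 2 of 4 anchoring fibril and Fraser complex genes were higher, 8 of 11 integrin ligands were higher, and 2 of 13 integrin adaptors were higher and 3 lower. By list, the medians were 0.312, 0.385, 1.16, 0.833 and -0.0211. The widest differences were those of Col7a1 (2.31 ± 0.17), Frem2 (1.71 ± 0.17) and Col17a1 (1.66 ± 0.13). At steps 3 to 5 against steps 6 and more, 6 of 11 basement membrane genes were higher and 2 lower, 3 of 9 hemidesmosome and laminin receptor genes were higher and 3 lower, 3 of 4 anchoring fibril and Fraser complex genes were higher, 3 of 11 integrin ligands were higher and 3 lower, and 6 of 13 integrin adaptors were higher and 4 lower. For this band the list medians were 0.306, 0.117, 0.611, 0.134 and 0.184. In this band the largest changes were of Sgca (-2.82 ± 0.14), Tnc (1.77 ± 0.10) and Agrn (1.34 ± 0.08), where Agrn encodes agrin, a proteoglycan that binds laminin. Sgca was higher at steps 6 and more, the band with 40.6% Myl1/Acta1 spots.

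The genes most like single members over the 35 sums, by Spearman correlation of log2 CPM and with no test, were Ahnak2 (0.935), Sdc4 (0.925) and Mapk3 (0.924) for Itgb4, Hoxd8 (0.873), Cdh5 (0.866) and Col4a1 (0.863) for Itga7, St8sia4 (0.843), Sp110 (0.825) and Gldn (0.81) for Itga8, and Cilp (0.918), Tgm2 (0.899) and Fstl1 (0.893) for Lama2. Sdc4 encodes a cell surface proteoglycan. Among members, Lama3 and Lamb3 had a correlation of 0.53, Lamb1 and Lama5 0.657, Lamb1 and Lamc1 0.314, Lama2 and Itga7 0.754, Itgb7 and Itgae 0.566, and Itgav and Itgb6 0.233. Sums of a slice share a library, so these are descriptions.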

How the data were processed

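Spatial transcriptomes were read from 4 slices, each with a fresh-frozen section from every one of 3 mice. The authors deposited whole-number UMI counts per gene and spot for each slice, and the submitters' processing notes name Space Ranger 2.0.1 and the mm10 genome. The polyA capture reads the 3' end of transcripts, so levels are not compared between genes, and genes that share 3' sequence may share UMIs.

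Spots with at least 250 genes were clustered (Seurat 5.3.0, 2000 variable genes, 30 principal components, 20 neighbours, resolution 0.65), with the members left out of the variable genes. Only 1 member had been among the variable genes, so this removed 1 gene. The alternative with the members kept added that gene back and reached 12 clusters at a resolution of 0.9. Clusters were named by the marker list with most genes among their 20 leading genes by fold (pseudocount 5 CPM), a rule set after the clusters had been seen. Only the lists of epidermis, upper follicle and sebaceous, outer root sheath, matrix and hair shaft, dermal fibroblast, adipose and skeletal muscle could give a name. The other lists, such as immune and basal keratinocyte, could not, and clusters of low median depth stayed unnamed. Ties, as in the Slc4a1/Krt14 region, went to the list with the higher mean log2 fold. Sums of UMIs per slice and region with at least 10 spots entered the quasi-likelihood test of edgeR 4.0.16 after filterByExpr and TMM scaling, with p-values adjusted by Benjamini-Hochberg over all genes tested and called under 0.05. On simulated counts for 12867 genes with 200 changed by a log2 fold of 1, 73.5% were recovered and 1.34% of calls were false. Alternatives were DESeq2 1.42.0, other scaling and filters, other clusterings, marker-scored spots, sums per strip, a replicate block and each slice left out. Applying those that redraw the regions to single members was chosen after seeing the data.

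Slices share mice, so same-numbered sums come from the same sections. The mean correlation of their residuals about each region's mean was 0.176, 0.0985, 0.0606 and 0.0887 in slices 1 to 4, and in bands at 0.246, 0.142, 0.0985 and 0.137. For each comparison the text names up to 5 called members per direction with the largest fold among those that moved one way in 4 of 4 slices, 15 members always, and the 3 largest calls among 51 pathway genes. A member gene that enters the counts and medians is not reported here by itself. The members and lists were chosen with earlier results of these data known. A marker not in the feature table, Krt85, was left out, as were 9 spots and the sums of under 10 spots. Promoter windows are RefSeq's for GRCm38.p6. Intervals and errors cover the spread between slices of the same animals.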

Additional observations from a re-analysis of the deposited data

Results flagged for a closer look

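Of 90 groups of 4 slices examined, 3 held a slice that lay far from the others, and chance alone gives about 1 in 20. Lamb3 in the Lor/Krt10 region was 155 CPM in slice 2 against 107 to 111 CPM in the others. Itga6 in the Myl1/Acta1 region was 32.5 CPM in slice 1 against 25.3 to 26.3 CPM in the others. Lama3 in the Adipoq/Cfd region was 11.8 CPM in slice 4 against 9.99 to 10.1 CPM in the others.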

How the results depend on the processing

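Of 78 alternatives to the 9 counts of called members, 70 stayed within 1.5 times the main count, and so did all 36 that left out a slice. The comparison of the Lor/Krt10 with the upper follicle and sebaceous regions (9 called) gave 5 with 8 clusters, 14 with 16 clusters, 17 with the members kept for clustering, 17 with at least 500 genes per spot and 3 with marker-scored spots. In the settings that gave 14 and 17, a cluster with Slc4a1 and Krt14 among its leading genes was named upper follicle and sebaceous. It held 790 (16 clusters), 787 (members kept) and 824 spots (at least 500 genes), and took the name through Mc5r. Those counts therefore set the Lor/Krt10 region against part of the Slc4a1/Krt14 region too. Step 0 against steps 1 and 2 (17 called) gave 9 with 16 clusters and 9 with marker-scored spots, where 3 and 4 were higher and 6 and 5 lower, and adipose-scored against dermal-scored spots (21 called) gave 13 with sums per strip, in which 20 members were tested. Of all genes, 19.9%, 21.2% and 45.1% were called in these settings. The cause was not tested. Leaving out each slice gave 18 to 22, 6 to 8 and 21 to 25 for the region comparisons in the order of the text, 9 to 10, 20 to 23 and 21 to 21 for the marker-scored ones, and 12 to 16, 25 to 27 and 17 to 19 for the bands. With the replicate block, which pairs sums of the same slice, the counts were 24, 10, 24, 12, 23, 21, 18, 27 and 20, and no call was lost. For the members that the naming rule picked in each comparison, and with the regions kept as drawn, 1332 values stayed on their side of the threshold, 67 lost a call, 8 gained one and 0 changed sign where either value was called. Regions drawn another way, sums per strip and bands without muscle were applied to single members after the data had been seen, and there 716 stayed on their side, 48 lost a call, 25 gained one and 19 changed sign where either value was called. The cause was not tested for these either. With 16 clusters, the log2 fold changes that changed sign at step 0 against steps 1 and 2 were those of Itgae (-0.172), Itgal (-0.569), Itgb2 (-0.347), Itga8 (-0.927), Lamb2 (-0.234), Lama2 (-0.64) and Lama4 (-0.445), and elsewhere those of Lamb1 at steps 1 and 2 against steps 3 to 5 (-0.564), Itga6 against the upper follicle and sebaceous regions (0.414), Itgb7 in epidermis against the H2-Ab1/Col1a1 cluster (-0.471), and Lama5 (0.382) and Lamb1 (0.269) in muscle against it. With marker-scored spots they were Itga8 (-0.208) and Lama4 (-0.0255) at step 0, Itgb1 (-0.265) and Itgb2 (-0.259) in the Lor/Krt10 region against the Slc4a1/Krt14 and the upper follicle and sebaceous regions, and Lamc3 between the Slc4a1/Krt14 and the hair shaft and matrix regions (0.00625). Without muscle spots, Lamc1 (0.0997) and Itga7 (0.478) changed sign at steps 3 to 5 against deeper steps. The only call that was again a call in the opposite direction was that of Lamb1 in muscle, -0.336 against 0.269. The 2 comparisons with the Slc4a1/Krt14 region could not be fitted with 16 clusters, the members kept or at least 500 genes, since no cluster then held an outer root sheath marker among its 20 leading genes. Low counts left 4 members untested between regions.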
